A study of Mus musculus with 36 samples.

Results

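The nuclear lamina and envelope genes described here are Lmna, Lmnb1, Lmnb2, Lbr, Emd, Tmpo, Banf1, Sun1, Sun2 and Syne2. They were chosen by symbol, and all 10 were found among the 15289 genes of the expression table, each as a single row. RNA sequencing values were available for 33 libraries of mouse cells in 11 groups, all of the strain labelled Nrl-GFP, in which the promoter of the rod factor Nrl drives green fluorescent protein. The starting cells were embryonic fibroblasts at passage 2 (MEF, n = 3). Such fibroblasts were given 5 chemicals in a medium for photoreceptor induction. Intermediates were collected on day 5 (d5, n = 3) and day 8 (d8, n = 3), and the reprogrammed photoreceptor-like cells on day 11 (CiPC, n = 3). Isolated rods are named by postnatal day, with 2 libraries each at P2 and P4, 3 each at P5, P6 and P14, and 4 each at P10 and P28. The P5 rods and the cultured cells form 1 series. All further rods were taken over from an earlier series, although the labels of P10 replicate 3 and P14 replicate 3 name no older sample. The labels state a sort on the promoter reporter, so a sorted library holds what passed that gate. Between a sorted and an unsorted group, sort and day or age cannot be told apart. They do not state separate cultures or animals, so p-values rest on a spread among libraries that could be purely technical.

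The lamina is a meshwork of A-type lamins, encoded by Lmna, and B-type lamins, encoded by Lmnb1 and Lmnb2, that lines the inner nuclear membrane. Heterochromatin is held at the nuclear edge by the lamin B receptor (Lbr) and by A-type lamins together with membrane partners such as emerin (Emd). Nuclei of adult mouse rods are known for an inverted order, with heterochromatin in the centre and without Lbr and lamin A/C protein at the edge. SUN proteins of the inner membrane (Sun1, Sun2) and nesprins of the outer membrane (Syne2 and its relatives) form the LINC complex, which ties the nucleus to the cytoskeleton and moves it in developing photoreceptors.

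Values are the authors' normalized CPM, read abundance scaled in a way that no label describes. They are not per length, so levels were compared between libraries. Genes were set against each other per length for the lamins, and otherwise only as a ratio whose size was compared between libraries. Rod markers set the groups apart in the labelled order. Nrl was at 0.331 CPM or less in MEF, d5 and d8, at 30.4 to 30.9 CPM in CiPC and at 682 CPM or more in every rod library. The CiPC libraries also held Müller glia markers, with a sum over 8 genes of 3155 to 3252 CPM against 272 to 299 CPM in P5 rods, and Vim at 2393 to 2648 CPM. Rod libraries P10 replicate 4 and P14 replicate 3 stood apart from others of their age, with Nrl at 1697 and 1943 CPM against 4149 CPM or more. No member changed its call when both were left out.

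**Figure D1:**
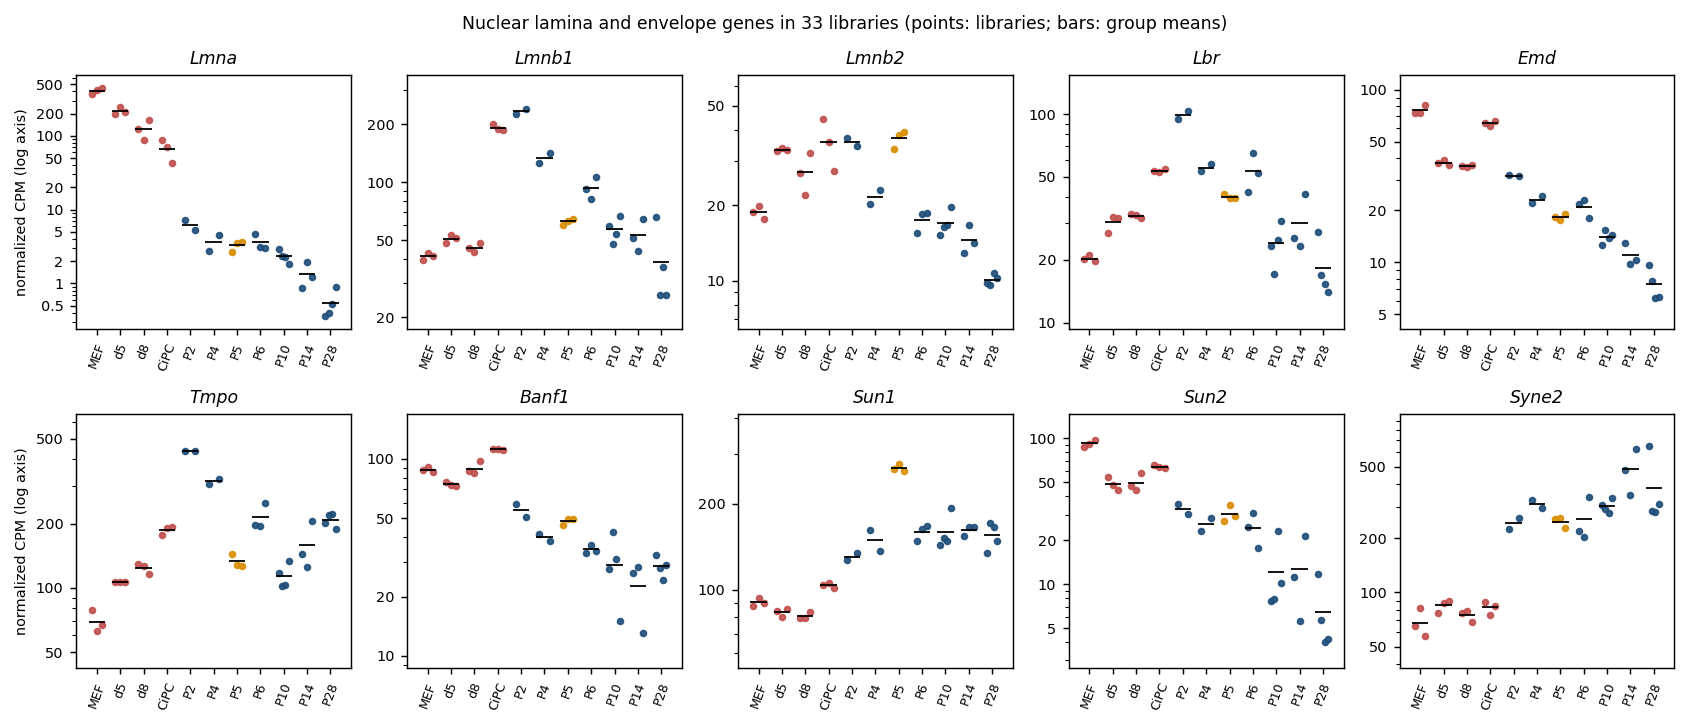
Normalized CPM (log axis) of the 10 genes in each of the 33 libraries, with red points for cultured cells, orange for P5 rods of the same series, blue for the older rods and bars for group means. The mean of Lmna ranged from 409 CPM in MEF to 0.547 CPM in P28 rods, while Syne2 lay between 57.0 and 90.2 CPM in cultured cells and at 203 CPM or more in rods.

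Lmna (ENSMUSG00000028063, GRCm38 chr3:88480147-88509956, minus strand) was at 364, 412 and 452 CPM in MEF. It was at 200, 245 and 209 CPM on day 5, at 122, 87.7 and 166 CPM on day 8 and at 86.6, 70.6 and 43.4 CPM in CiPC. No 2 of these groups overlapped, and each stood below the one before it. In rods Lmna was at 7.19 and 5.27 CPM at P2, at 2.68, 3.55 and 3.68 CPM at P5 and at 0.364, 0.395, 0.520 and 0.909 CPM at P28. Every CiPC library was therefore above every rod library, and P2 was above all later rods. The order P4, P6, P5, P10, P14 and P28 held for the means only, since each of these groups overlapped the next. The highest group mean was 748-fold above the lowest, the widest range of the 10 genes.

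Lmnb1 (ENSMUSG00000024590, chr18:56707813-56753424, plus strand) was at 39.8, 43.0 and 41.6 CPM in MEF and still at 45.4, 43.5 and 48.7 CPM on day 8. In CiPC it was at 201, 188 and 187 CPM, below the 227 and 241 CPM of P2 rods and above the 126 and 142 CPM of P4 rods. Lmnb1 thus had its step between the day 8 libraries and the CiPC libraries, and CiPC stood between P2 and P4 rods without overlap. The lowest rod mean was that of P28, 38.7 ± 18.8 CPM (SD, n = 4), where replicate 1 at 65.9 CPM stood above the other libraries at 26.1 to 36.6 CPM. Lmnb2 (ENSMUSG00000062075, chr10:80901203-80918245, minus strand) varied less, with group means from 10.1 CPM in P28 rods to 37.1 CPM in P5 rods. Its CiPC libraries, at 44.5, 35.9 and 27.5 CPM, overlapped those of P5 and P2 rods.

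Per kilobase of the longest coding transcript (3156 bases for Lmna, 2843 for Lmnb1 and 3531 for Lmnb2), the makeup of the lamin transcripts turned over. Lmna made up 85.6% to 87.9% of the lamin sum in MEF, 70.5% to 73.3% on day 5, 56.3% to 66.6% on day 8 and 15.8% to 24.8% in CiPC. Lmnb1 made up 8.99% to 10.4% in MEF, 63.8% to 75.3% in CiPC and 86.1% to 88.1% in P2 rods. Lamin transcripts in CiPC were therefore mostly B-type, with a share of Lmna above that of every rod library, where it was at most 3.88%. The deposited values do not separate lamin A from lamin C.

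**Figure D2:**
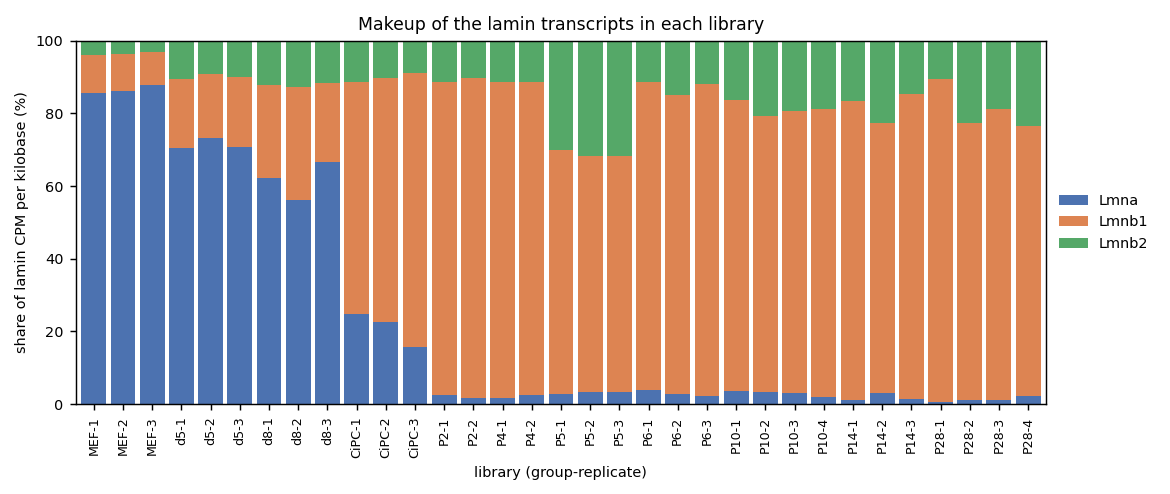
Share (%) of Lmna, Lmnb1 and Lmnb2 in the sum of their CPM per kilobase, 1 bar for each of the 33 libraries. Lmna held 85.6% to 87.9% in MEF and 15.8% to 24.8% in CiPC, and Lmnb2 held 30.1% to 31.8% in P5 rods against at most 14.8% in P4 and P6 rods.

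Lbr (ENSMUSG00000004880, chr1:181815335-181843046, minus strand), which also carries a sterol reductase domain, was at 20.2, 21.0 and 19.6 CPM in MEF. It was at 27.0, 31.9 and 31.8 CPM on day 5, at 33.05, 32.7 and 31.9 CPM on day 8 and at 53.5, 53.0 and 54.3 CPM in CiPC. All treated libraries were above all MEF libraries, days 5 and 8 overlapped, and CiPC was above both. In rods Lbr was at 95.0 and 103 CPM at P2, at 53.3 and 57.4 CPM at P4, at 41.4, 39.6 and 39.6 CPM at P5 and at 27.1, 17.0, 15.3 and 14.0 CPM at P28. CiPC overlapped P4 and P6 rods, and the P28 libraries overlapped those of MEF. Relative to Lmna, as log2((Lbr + 1)/(Lmna + 1)), Lbr went from -4.46 to -4.11 in MEF through -0.68, -0.41 and 0.32 in CiPC to 2.44 to 4.36 in rods. No CiPC library reached the rod range of this ratio.

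**Figure D3:**
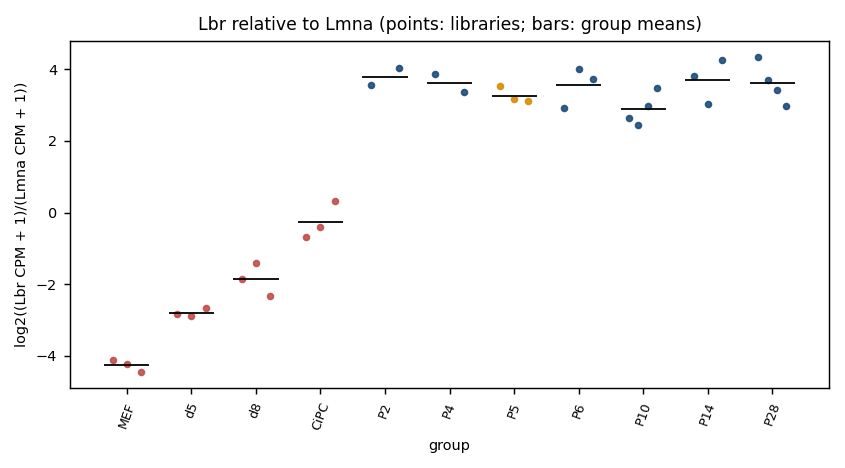
Log2 ratio of Lbr to Lmna, each as CPM + 1, in the 33 libraries, with red points for cultured cells, orange for P5 rods, blue for the older rods and bars for group means. The ratio ranged from -4.46 to -4.11 in MEF, from -0.68 to 0.32 in CiPC and from 2.44 to 4.36 over all rods.

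Tmpo (ENSMUSG00000019961, chr10:91147571-91181315, minus strand), which encodes the LAP2 proteins that bind lamins and chromatin, was at 78.5, 63.0 and 66.9 CPM in MEF. It was at 106, 106 and 106 CPM on day 5, at 130, 126 and 117 CPM on day 8 and at 178, 190 and 192 CPM in CiPC. These 4 groups followed each other without overlap. In rods it was at 435 and 436 CPM at P2, at 102 to 133 CPM at P10 and at 188 to 222 CPM at P28, so that its lowest rod mean was at P10 and not at the oldest age. Emd (ENSMUSG00000001964, chrX:74254687-74261548, plus strand) was at 73.1, 73.8 and 81.6 CPM in MEF, at 36.6 to 39.3 CPM on day 5, at 35.7 to 36.8 CPM on day 8 and at 64.0, 61.8 and 66.0 CPM in CiPC. Emd was thus lower in the intermediates than in both MEF and CiPC. In rods it was at 32.0 and 31.6 CPM at P2 and at 6.18 to 9.60 CPM at P28. Banf1 (ENSMUSG00000024844, chr19:5364638-5367168, minus strand), the DNA-bridging factor that binds LEM-domain proteins such as emerin, was highest in CiPC at 111 to 113 CPM, and its rod libraries were at 12.996 to 59.2 CPM. Banf1 shares 428 exon bases with Eif1ad on the opposite strand, which reached 81.6 CPM, and the strand of the libraries is not given, so Banf1 is uncertain. Emd shares 343 exon bases with the pseudogene Gm14686 on its own strand.

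The promoters of Lbr and Tmpo are shown because both genes rose from MEF to CiPC, and that of Lmna because it fell. Each is the window of 250 bases before a RefSeq start (GRCm38.p6), given 5′ to 3′ on the gene's strand. For Tmpo and Lmna it is the farther upstream of 2 listed windows. All of these windows lie inside the gene span of GENCODE M21. The capitals mark CCAAT, the CCAAT box, and TTTGAA, the letters of the CHR element known from cell cycle promoters, on either strand, so that TTCAAA marks the latter read in reverse.
Lbr (chr1:181842402-181842651, minus strand): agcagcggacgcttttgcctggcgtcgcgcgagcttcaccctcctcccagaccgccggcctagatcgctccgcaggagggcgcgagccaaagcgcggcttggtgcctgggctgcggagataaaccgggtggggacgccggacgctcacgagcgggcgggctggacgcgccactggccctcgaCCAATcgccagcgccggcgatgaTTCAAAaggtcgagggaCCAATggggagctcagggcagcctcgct
Tmpo (chr10:91171620-91171869, minus strand): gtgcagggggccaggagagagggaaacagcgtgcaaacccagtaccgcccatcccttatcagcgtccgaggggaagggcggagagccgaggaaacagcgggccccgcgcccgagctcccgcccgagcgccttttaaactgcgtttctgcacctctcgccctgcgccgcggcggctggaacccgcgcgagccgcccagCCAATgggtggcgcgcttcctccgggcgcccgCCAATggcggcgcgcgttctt
Lmna (chr3:88503353-88503602, minus strand): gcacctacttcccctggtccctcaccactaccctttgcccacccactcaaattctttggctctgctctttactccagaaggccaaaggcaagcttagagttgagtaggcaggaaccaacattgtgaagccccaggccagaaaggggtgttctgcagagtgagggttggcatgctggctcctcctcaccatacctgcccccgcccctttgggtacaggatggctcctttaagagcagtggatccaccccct
The RefSeq table held windows for 9 of the 10 genes, all but Lmnb1, 14 windows in all. CCAAT occurred in 8 of them, against 33.8% of all 32851 promoter windows of this length, and TTTGAA in 3, against 16% of all. The second Lmna window held CCAAT, and the second Tmpo window held TTTGAA but no CCAAT. Sun2, lower in CiPC than in MEF, had 2 CCAAT and 1 TTTGAA in its window. The motifs thus did not separate genes that rose from genes that fell. The letters TTTCCCGC, an E2F site, occurred in 2 of the 14 windows, against 0.895% of all, those of Banf1 and of the second Tmpo start. A second E2F variant, TTTGGCGC, occurred in none, against 0.417% of all. The motifs do not overlap each other in the windows shown. These are matches of letters, and binding was not measured.

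Sun1 (ENSMUSG00000036817, chr5:139200637-139249840, plus strand) varied least of the 10 genes. It was at 87.4, 93.2 and 89.9 CPM in MEF and at 103, 106 and 101 CPM in CiPC. The older rods were at 127 to 194 CPM, and the P5 rods stood above every other library at 266, 276 and 260 CPM. Sun2 (ENSMUSG00000042524, chr15:79724070-79742536, minus strand) was at 87.5, 91.0 and 98.1 CPM in MEF, at 65.6, 63.7 and 62.8 CPM in CiPC and at 27.3, 34.7 and 29.2 CPM in P5 rods. In P28 rods it was at 11.8, 5.64, 3.98 and 4.24 CPM. The ratio of Sun1 to Sun2 CPM was accordingly 0.916 to 1.02 in MEF, 1.58 to 1.66 in CiPC, 7.94 to 9.72 in P5 rods and 11.4 to 41.5 in P28 rods.

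Syne2 (ENSMUSG00000063450, chr12:75818134-76110926, plus strand), which encodes nesprin-2, divided the libraries by origin. It was at 65.0, 81.6 and 57.0 CPM in MEF and at 88.9, 75.0 and 83.8 CPM in CiPC, and MEF, d5, d8 and CiPC overlapped. Rods were at 225 and 260 CPM at P2, at 255, 261 and 227 CPM at P5 and at 655, 285, 281 and 311 CPM at P28. Neighbouring groups in the order of means overlapped, except for a gap between P2 rods and day 5 cells, so no cultured library reached the rod range.

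Day 5 cells were compared with MEF to see what the first days of treatment changed. A gene was called when its Benjamini-Hochberg adjusted p from limma was under 0.05 and its fold was at least 2 on the log2(CPM + 1) scale, on which all changes below are given. None of the 10 genes was called, against 13.6% of all genes tested called higher and 12.6% lower. All 10 had an adjusted p under 0.05, as did 74.9% of all genes, with changes under 2-fold on that scale. The day 5 and MEF libraries of Syne2 overlapped nonetheless. Emd came closest, at -0.99 ± 0.057 (SE, adjusted p = 2.03e-10), and passed 2-fold when MEF replicate 1, MEF replicate 2 or d5 replicate 2 was left out (-1.02, -1.01 and -1.02). Sun2 stood at -0.91 ± 0.10, Lmna at -0.90 ± 0.22 and Lmnb2 at 0.80 ± 0.14. Among their partners, Icmt, the methyltransferase that completes prenylated lamins, fell by 1.35 ± 0.069, and the chromatin protein gene Hmga2 fell by 4.30 ± 0.067. Of the 21 LINC and lamina partners 3 rose and 0 fell, led by Syne3 at 1.72 ± 0.10 and Nemp2 at 1.53 ± 0.14, and the sterol reductase gene Dhcr7 rose by 1.82 ± 0.082. The 8 macrophage markers summed to 224 to 250 CPM in MEF and 9.55 to 11.4 CPM on day 5, and all 8 fell. Fewer cells of a type and less RNA per cell cannot be told apart in bulk libraries, and the part of these cells in the member changes was not tested.

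Day 8 cells were compared with day 5 cells for the second step. None of the 10 genes was called, against 3.24% of all genes called higher and 2.71% lower, and 4 had an adjusted p under 0.05, against 46.3% of all. Lmna had the widest difference, -0.84 ± 0.22 (adjusted p = 0.00634), and it passed 2-fold without d8 replicate 3 (-1.06). Banf1 stood at 0.26 ± 0.055, Tmpo at 0.22 ± 0.073 and Lmnb1 at -0.15 ± 0.056.

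CiPC were compared with day 8 cells for the last step. Lmnb1 rose by 2.04 ± 0.056 (adjusted p = 1.31e-14), a ratio of means of 4.18, and was the only member called, against 14.3% of all genes called higher and 15.6% lower. Of the 10 genes 9 had an adjusted p under 0.05, against 76.7% of all. Emd stood at 0.80 ± 0.057, Lbr at 0.70 ± 0.064 and Tmpo at 0.58 ± 0.073, all higher in every CiPC library than in every day 8 library. Lmna stood at -0.90 ± 0.22 and passed 2-fold without d8 replicate 2 (-1.13) or CiPC replicate 1 (-1.11). In the same step the rod chromatin factor Casz1, which in mouse rods is known to act on nuclear organisation, rose by 3.41 ± 0.22, Hmga2 rose by 3.42 ± 0.067 and the pore membrane protein gene Nup210 rose by 4.61 ± 0.18. Of the 21 LINC and lamina partners 0 rose and 2 fell, Tmem120a at -2.37 ± 0.086 and Syne1 at -1.46 ± 0.13.

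Over the whole course, CiPC were compared with MEF. Lmnb1 rose by 2.18 ± 0.056 (adjusted p = 8.25e-15), Tmpo by 1.42 ± 0.073 (adjusted p = 4.35e-11) and Lbr by 1.36 ± 0.064 (adjusted p = 1.28e-11). Lmna fell by 2.65 ± 0.22 (adjusted p = 2.22e-08), and its MEF mean was 6.12-fold the CiPC mean. With 3 members called higher and 1 lower, the background was 15.4% of all genes called higher and 16.0% lower. The median change of the 10 genes was 0.32, and that of all genes was -0.03. Lmnb2 stood at 0.88 ± 0.14 and passed 2-fold without CiPC replicate 3 (1.05). Sun1, Syne2, Banf1, Emd and Sun2 stood between -0.52 and 0.34.

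Markers of dividing cells were also higher in CiPC than in MEF, with 15 of 16 called. Their sum was 574 to 577 CPM in MEF and 1036 to 1054 CPM on day 5. It was 1268 to 1344 CPM on day 8 and 1922 to 2096 CPM in CiPC. This sum was higher at each step, whereas Lmnb1 was still at 43.5 to 48.7 CPM on day 8. Of 10 fibroblast markers 8 were called lower in CiPC than in MEF. Col1a1 was at 55.2, 40.3 and 28.1 CPM in CiPC against 3894 to 5132 CPM in MEF. The sum of the 10 markers was 22184 to 24211 CPM in MEF and 47709 to 49779 CPM on day 5. It was 52743 to 56375 CPM on day 8 and 3068 to 3271 CPM in CiPC. In day 5 cells against MEF 7 of these markers were called higher and 3 lower. Lmna was lower on day 5 than in MEF and lower again on day 8. Lmna, Lmnb2, Casz1 and Col1a1 had the same order in the CiPC libraries, highest in replicate 1 and lowest in replicate 3. The other fibroblast markers did not share it as a set. Col1a2 and Thy1 had this order, Col3a1, Dcn, Postn, S100a4 and Vim had the reverse, and Pdgfra and Fn1 had neither. The part of either marker group in the member changes was not tested.

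Of 21 LINC and lamina partners 4 rose and 2 fell between MEF and CiPC, with a median change of 0.02, against 15.4% of all genes called higher and 16.0% lower. Nrm and Nemp2, which encode inner nuclear membrane proteins, rose by 1.87 ± 0.16 and 1.79 ± 0.14. Syne1, which encodes nesprin-1, fell by 3.00 ± 0.13, from 62.8 to 74.4 CPM in MEF to 5.57 to 9.36 CPM in CiPC, and Tmem120a fell by 1.02 ± 0.086, a call lost without MEF replicate 2 or CiPC replicate 2. Of 5 lamin processing genes only Icmt was called, and it fell by 1.43 ± 0.069. Of 14 heterochromatin partners Casz1 rose by 3.59 ± 0.22, Cbx3, which encodes HP1 gamma, rose by 1.52 ± 0.099, and Hmga2 fell by 2.63 ± 0.067. All 4 sterol reductase genes rose, Dhcr7 by 2.53 ± 0.082 and Tm7sf2, a C14 reductase like Lbr, by 1.74 ± 0.16. Of 28 nuclear pore genes tested only Nup210 was called, and it rose by 4.21 ± 0.18.

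**Figure D4:**
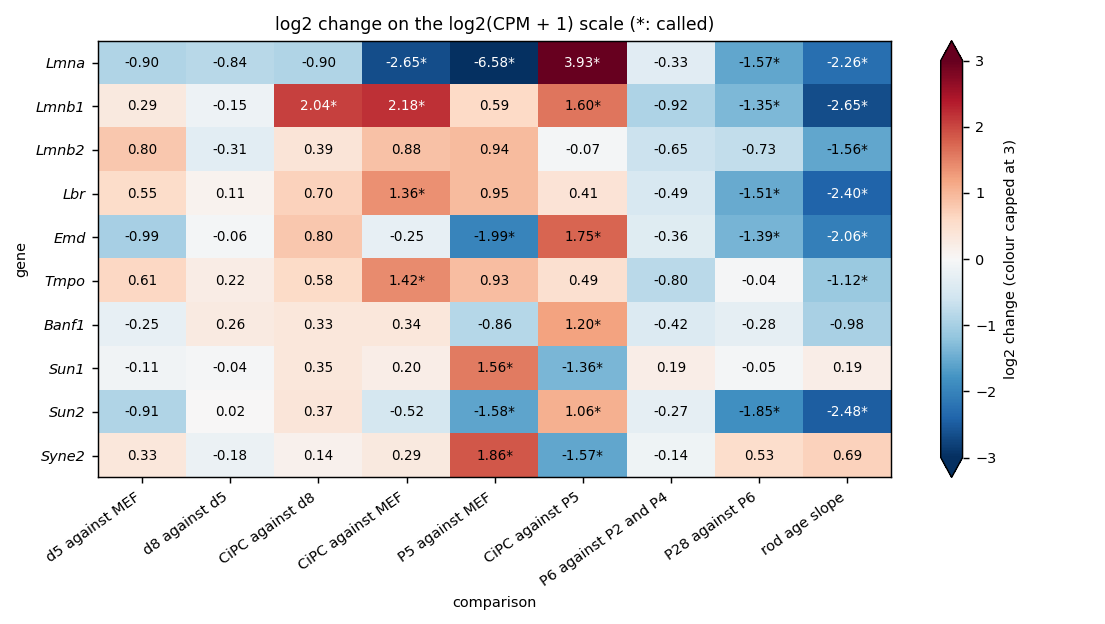
Log2 change on the log2(CPM + 1) scale of the 10 genes in 9 comparisons, with an asterisk where the adjusted p was under 0.05 and the fold at least 2 (colour capped at 3). The last column is the change over P2 to P28 from the slope on log2 age. Lmna was lower in each comparison except CiPC against P5 rods, where it was higher by 3.93.

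P5 rods were compared with the same MEF libraries, which both comparisons share. Syne2 rose by 1.86 ± 0.11 (adjusted p = 1.11e-10) and Sun1 by 1.56 ± 0.044 (adjusted p = 1e-14). Lmna fell by 6.58 ± 0.22 (adjusted p = 9.5e-14), Emd fell by 1.99 ± 0.057 (adjusted p = 9.06e-15) and Sun2 fell by 1.58 ± 0.10 (adjusted p = 3.95e-10). The background for these 2 higher and 3 lower members was 23.3% of all genes called higher and 29.2% lower. Lbr stood at 0.95 ± 0.064, Lmnb2 at 0.94 ± 0.14, Tmpo at 0.93 ± 0.073, Lmnb1 at 0.59 ± 0.056 and Banf1 at -0.86 ± 0.055. Under quantile normalization Lbr, Lmnb2 and Tmpo passed 2-fold, and 5 members were called higher.

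Side by side against MEF, Lmna was lower in both, at -2.65 in CiPC and -6.58 in P5 rods. Lbr and Tmpo were at 1.36 and 1.42 in CiPC and at 0.95 and 0.93 in P5 rods. Lmnb1 was at 2.18 in CiPC and 0.59 in P5 rods. Emd was at -0.25 and -1.99, Syne2 at 0.29 and 1.86, and Sun1 at 0.20 and 1.56, in that order.

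The direct comparison of CiPC with P5 rods tested those differences. Lmna was higher in CiPC by 3.93 ± 0.22 (adjusted p = 1.18e-10), a ratio of means of 20.2, Emd by 1.75 ± 0.057 (adjusted p = 8.86e-14) and Lmnb1 by 1.60 ± 0.056 (adjusted p = 2.58e-13). Banf1 was higher by 1.20 ± 0.055 (adjusted p = 7.14e-12) and Sun2 by 1.06 ± 0.10 (adjusted p = 8.38e-08), although Sun2 dropped under 2-fold with quantile normalization (0.96) or without P5 replicate 1 (0.99). Syne2 was lower, at -1.57 ± 0.11 (adjusted p = 1.45e-09), as was Sun1, at -1.36 ± 0.044 (adjusted p = 9.97e-14). These 5 higher and 2 lower members stood against 22.8% of all genes called higher and 16.9% lower. Lbr stood at 0.41 ± 0.064, Tmpo at 0.49 ± 0.073 and Lmnb2 at -0.07 ± 0.14 (adjusted p = 0.682).

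Among the partners, Icmt was at 51.2 to 60.1 CPM in CiPC and at 598 to 626 CPM in P5 rods, a change of -3.46 ± 0.069. Zmpste24, the protease that matures prelamin A, was higher in CiPC by 1.34 ± 0.066. Of the heterochromatin partners 3 were higher in CiPC, led by Hmga2 at 5.22 ± 0.067, and 4 were lower, led by Casz1 at -3.97 ± 0.22 and the histone methyltransferase gene Suv39h2 at -2.12 ± 0.084. Of the LINC and lamina partners 6 were higher and 3 lower, with Net1 at 2.83 ± 0.085, Syne3 at 2.12 ± 0.10, Syne1 at -1.81 ± 0.13 and Syne4 at -1.76 ± 0.14. The background for these 21 partners and the 14 heterochromatin partners was 22.8% of all genes called higher and 16.9% lower. All 16 markers of dividing cells were higher in CiPC, and their sum was 110 to 117 CPM in P5 rods. Of the fibroblast markers 8 of 10 were also higher in CiPC, with a sum of 3068 to 3271 CPM against 61.4 to 67.2 CPM in P5 rods. So were 7 of 8 Müller glia markers and 7 of 8 macrophage markers, the latter with a sum of 42.5 to 48.8 CPM against 6.36 to 7.58 CPM. The part of these markers' cells in the member differences was not tested.

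The P5 rods did not lie between the older P4 and P6 rods for several members. Sun1 was at 260 to 276 CPM at P5, against 136 to 162 CPM at P4 and 148 to 167 CPM at P6. Lmnb1 was at 60.4 to 64.7 CPM at P5, against 126 to 142 and 82.2 to 106 CPM, and Tmpo was at 127 to 144 CPM, against 306 to 325 and 195 to 250 CPM. Lmnb2 was at 33.7 to 39.4 CPM at P5, against 20.2 to 23.0 and 15.4 to 18.5 CPM, so the ratio of Lmnb1 to Lmnb2 CPM was 1.64 to 1.79 at P5 and 4.47 to 6.23 at P4 and P6. Lmna, Emd and Sun2 at P5 overlapped P6 rods. The sum of the 16 dividing-cell markers was 887 to 975 CPM at P4 and 324 to 439 CPM at P6, above the P5 value on both sides. Series, age and sort cannot be told apart here, and no test was made across the 2 series.

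Early maturation was examined within the older rods by comparing P6 with the mean of P2 and P4. None of the 10 genes was called, against 1.03% of all genes called higher and 1.97% lower. An adjusted p under 0.05 was reached by 3 members, Lmnb1 (-0.92 ± 0.25, adjusted p = 0.038), Tmpo (-0.80 ± 0.17, adjusted p = 0.00698) and Lmnb2 (-0.65 ± 0.14, adjusted p = 0.0107), and by 5.91% of all genes. Quantile normalization took Lmnb1 and Tmpo past 2-fold, at -1.12 and -1.08. In the same comparison 15 of 16 dividing-cell markers fell.

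Later maturation was examined by comparing P28 with P6 rods. Sun2 fell by 1.85 ± 0.42 (adjusted p = 0.000899), Lmna fell by 1.57 ± 0.22 (adjusted p = 8.8e-06), Lbr fell by 1.51 ± 0.25 (adjusted p = 4.79e-05), Emd fell by 1.39 ± 0.17 (adjusted p = 1.66e-06) and Lmnb1 fell by 1.35 ± 0.25 (adjusted p = 0.000159). These 5 members called lower, and none higher, stood against 29.9% of all genes called lower and 17.2% higher. The median change was -1.04 over the members and -0.30 over all genes, and the latter was 0.02 after quantile normalization and -0.17 after median-of-ratios scaling. Quantile normalization ended the calls of Lmna (-0.36, adjusted p = 0.182) and Emd (-0.74), while Lbr, Lmnb1 and Sun2 remained called. Lmna at P28 was below 1 CPM, so the pseudocount shrinks its change, and the ratio of the P6 to the P28 mean was 6.59. Sun1 stood at -0.05 ± 0.14, Tmpo at -0.04 ± 0.17 and Syne2 at 0.53 ± 0.27 (adjusted p = 0.0946), and each changed sign under another scaling.

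Over all older rods, the change from P2 to P28 was estimated from a slope on log2 age. Lmnb1 fell by 2.65 ± 0.25 (adjusted p = 1.81e-08), Sun2 fell by 2.48 ± 0.41 (adjusted p = 2.08e-05), Lbr fell by 2.40 ± 0.29 (adjusted p = 4.06e-07) and Lmna fell by 2.26 ± 0.24 (adjusted p = 6.37e-08). Emd fell by 2.06 ± 0.18 (adjusted p = 7.32e-09), Lmnb2 fell by 1.56 ± 0.18 (adjusted p = 1.72e-07) and Tmpo fell by 1.12 ± 0.38 (adjusted p = 0.0135). With 7 members called lower and none higher, the background was 32.9% of all genes lower and 21.8% higher. The median was -1.81 over the members and -0.30 over all genes, and the latter was 0.05 after quantile normalization. Quantile normalization took Lmna under 2-fold (-0.86). The call of Tmpo was lost without P2 replicate 1 (-0.90, adjusted p = 0.0658), without P2 replicate 2 (-0.90, adjusted p = 0.0668), with median-of-ratios scaling (-0.96) and on a linear age scale (-0.47, adjusted p = 0.289). Banf1 stood at -0.98 ± 0.31 and passed 2-fold when any single P28 library was left out (-1.12 to -1.003). Syne2 (0.69 ± 0.30) and Sun1 (0.19 ± 0.15) were not called and changed sign under quantile normalization.

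The whole composition of the rod libraries moved over the same ages. The 10 rod markers summed to 3899 to 4014 CPM at P2 and to 335381 to 517600 CPM at P28, and all 10 rose. Markers of dividing cells summed to 1978 to 2009 CPM at P2 and 242 to 275 CPM at P28, with 15 of 16 called lower, and 7 of 8 retinal progenitor markers were called lower. The part of either in the member changes was not tested beyond the other scalings above.

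Of the other nesprin genes Syne1 and Syne3 rose with rod age, and Syne4 was not called, at 2.53 and 1.72 CPM at P2 and 0.646 to 1.42 CPM at P28. Syne1 rose by 5.15 ± 0.51 (adjusted p = 3.12e-08), from 11.5 and 14.6 CPM at P2 to 273 to 356 CPM at P28. Syne3, which encodes nesprin-3, rose by 5.05 ± 0.76 (adjusted p = 6.28e-06), from 0.271 and 0.210 CPM at P2 to 10.7 to 50.2 CPM at P28. P14 replicate 3 at 65.9 CPM and P28 replicate 1 at 50.2 CPM were the highest Syne3 libraries, and they were also the libraries highest for Syne2. Of the 21 LINC and lamina partners 5 rose and 7 fell, shares near the 21.8% and 32.9% of all genes, with the largest falls in Tor1b, a torsin ATPase gene, at -2.86 ± 0.41 and Nemp2 at -2.28 ± 0.41.

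Of 5 lamin processing genes 2 rose with rod age and 3 were not called, against 21.8% of all genes called higher. Icmt rose by 3.23 ± 0.27 (adjusted p = 3.73e-09), from 189 and 170 CPM at P2 to 1218 to 1313 CPM at P28, and Rce1, the protease that trims prenylated proteins, rose from 21.7 and 18.6 CPM at P2 to between 33.8 and 61.6 CPM at P28. Of the 14 heterochromatin partners 1 rose and 3 fell, against 21.8% of all genes called higher and 32.9% lower. The falls were led by Cbx5, which encodes HP1 alpha, at -3.34 ± 0.36 and the histone methyltransferase gene Setdb1 at -1.29 ± 0.22. Of 28 nuclear pore genes Gle1 rose by 1.01 ± 0.23 and 9 fell, the latter near the 32.9% of all genes called lower, led by Nup210 at -2.87 ± 0.34 and Nup50 at -2.08 ± 0.26. The sterol reductase gene Tm7sf2 fell by 1.19 ± 0.33. The call of Gle1 was lost with quantile normalization, without any 1 of the P6 libraries and without P28 replicate 2 or 3.

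**Figure D5:**
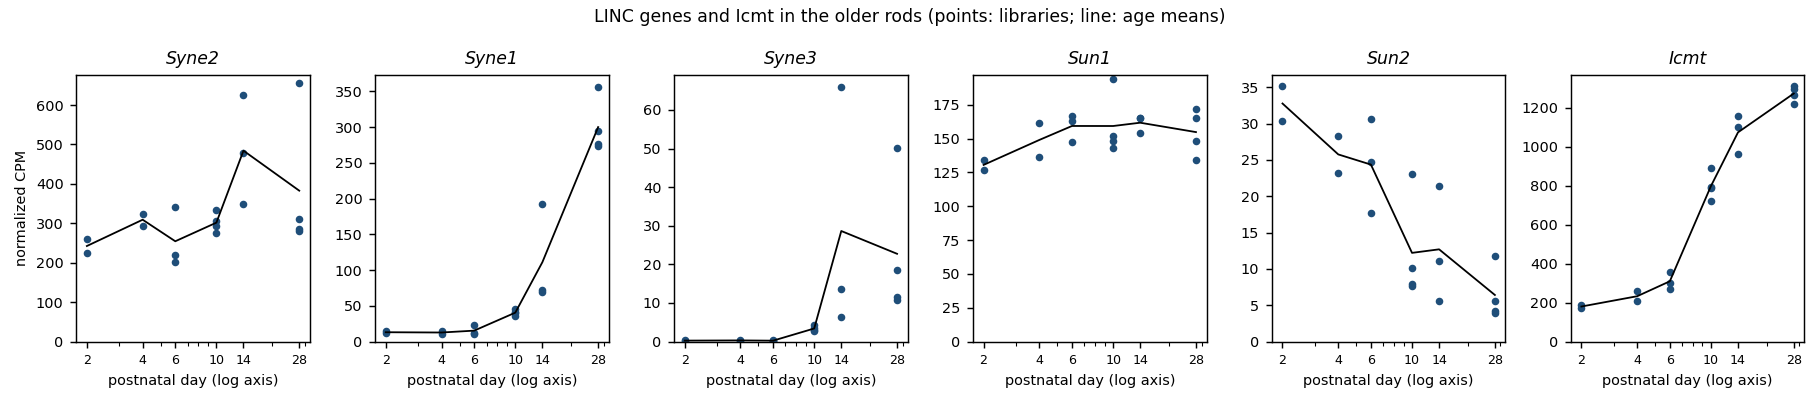
Normalized CPM (linear axis from 0) of 5 LINC genes and Icmt against postnatal day (log axis) in the 18 older rod libraries, with lines through the means of each age. Syne1 went from 11.5 and 14.6 CPM at P2 to 273 to 356 CPM at P28 and Icmt from 189 and 170 to 1218 to 1313 CPM, while Sun2 went from 35.2 and 30.3 to between 3.98 and 11.8 CPM.

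Across the 11 group means, members paired unevenly. The Pearson correlation of log2(CPM + 1) means was 0.92 for Lbr with Lmnb1, 0.75 for Lbr with Tmpo and -0.12 for Lbr with Lmna. Lmna had 0.88 with each of Sun2, Emd and Banf1 and -0.97 with Syne2. Among 11942 ranked genes, those closest to Lbr were Zgrf1 (0.961), Msh5 (0.950), Zfp422 (0.945) and Rgl3 (0.933). Those closest to Lmna were Tram2, Kank2 and Chmp1a (0.994 each) and Dcxr (0.992). These are descriptions over groups that share the authors' normalization, and the difference between cultured cells and rods weighs heavily in them.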

How the data were processed

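The labels list 36 samples. The deposited table has columns for 33 of them, all used with 0 unused, and the 3 P3 rod samples were not analysed here. Each sample was 80 ng of total RNA, per the labels' protocols. The submitters' processing notes name kallisto. Its version and index, the genome build and the library strand were not given in the sources used here, so genes overlapping on opposite strands cannot be told apart. The deposited values are a normalized CPM signal per gene, scaled by the authors in a way that no label describes, with column sums from 719752 to 2277242. The counts are unknown, so depth and its precision are unknown and no count model or interval was used.

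Values were analysed as log2(CPM + 1) with limma 3.58.1 in R 4.3.3, with moderated variances and a mean trend, for genes at 1 CPM or more in at least 3 libraries. The 15 libraries of this series and the 18 older rod libraries were fitted separately. Fits compared group means, or the slope on log2 postnatal day given as the change from day 2 to day 28. P-values were Benjamini-Hochberg adjusted over all genes of a fit. Levels across the 2 series rest on the authors' scaling. The procedure was tested on simulated data. Alternatives changed the fold threshold, the filter, the pseudocount, the scaling (quantile, median of ratios), the variance trend, the age scale, the replicate block and the libraries kept.

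The members, lists and tests were chosen with earlier results of these data known. Named beside the members were up to 2 called genes per direction of a list, the reporter's gene Nrl, and the 4 genes most like Lbr and like Lmna. Some genes eligible by it are not reported here. Named outside that rule, after their values were seen, were Vim, Col1a1 and the further fibroblast markers set beside Col1a1. Coordinates come from GENCODE M21 (GRCm38) and promoter sequences from RefSeq (GRCm38.p6), searched on both strands. Tables and figures were made with Python 3.11.15, pandas 2.3.3, numpy 2.4.6 and matplotlib 3.10.9.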

Additional observations from a re-analysis of the deposited data

Results flagged for a closer look

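In 20 sets of 4 libraries, 1 gene at P10 or P28 each, 3 had a library whose gap to the nearest other exceeded Dixon's 95% critical value. Chance alone flags about 1 in 20 such sets. Sun1 was at 194 CPM in P10 replicate 4, against 143 to 152 CPM in the other P10 libraries. Sun2 was at 23.09 CPM in P10 replicate 3, a library whose labels name no older sample, against 7.67 to 10.1 CPM in the others. Syne2 was at 654.8 CPM in P28 replicate 1, against 281 to 311 CPM in the others, and Syne3 was at 50.2 CPM in that library, against 10.7 to 18.5 CPM.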

How the results depend on the processing

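Leaving out the variance trend, the filter on low values, or both rod libraries without an older sample in the labels (added after seeing the data) moved no count of members and no member's call. The replicate number as a block changed none of 27 counts and none of 90 member changes. Correlations between the deviations of same-numbered libraries from their group means were -0.416 to 0.171. Deviations within such small groups must cancel out, so these values cannot show whether same-numbered libraries were paired. With a pseudocount of 0.1, 1 member was lower in d5 against MEF, and 1403 genes rather than 880 were called in d8 against d5. Quantile normalization gave 5 members higher in P5 against MEF, 2 lower in P6 against P2 and P4, and 3 lower in P28 against P6. With an adjusted p under 0.05 alone, members higher and lower were 5 and 5 for d5 against MEF (11081 genes called), 2 and 2 for d8 against d5 (6856), 8 and 1 for CiPC against d8 (11343) and 7 and 3 for CiPC against MEF (11609). By that rule 6 were higher in P5 against MEF (13013), 3 lower in P6 against P2 and P4 (808) and 1 higher in the age slope, and 12232 genes were called in CiPC against P5 and 9726 in P28 against P6. Leaving out each library in turn gave 0 to 1 members lower in each of d5 against MEF, d8 against d5 and CiPC against d8. The mean log2 ratio of Lbr to Lmna moved to -3.13 in d5, 4.28 in P2 and 2.87 in P28 with quantile normalization, and to 3.58 in P5, 4.39 in P14 and 4.85 in P28 with a pseudocount of 0.1.

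Changes that reversed were all uncalled. With quantile normalization they were Sun1 (0.065) in d5 against MEF, Sun2 (-0.013) in d8 against d5, Syne2 (-0.349) in P28 against P6, and Sun1 (-0.528) and Syne2 (-0.449) in the slope. Median-of-ratios scaling reversed Sun1 (0.120) and Tmpo (0.127) in P28 against P6. Sun1 also reversed there without P28 replicate 1 (range over single libraries left out -0.099 to 0.020), also when P14 replicate 3 was left out with it (0.020, added after seeing the data), and Tmpo without P6 replicate 3 or P28 replicate 4 (-0.102 to 0.076). Sun2 reversed in d8 against d5 without d5 replicate 3 or d8 replicate 3 (-0.087 to 0.102), Lmnb2 in CiPC against P5 without CiPC replicate 3 (-0.229 to 0.108), and Syne2 in P6 against P2 and P4 without P6 replicate 2 (-0.371 to 0.003). Of 108 counts over the pathway and dividing-cell lists, 66 moved by over 1.5 times with an adjusted p alone, 16 with quantile normalization, 4 with the smaller pseudocount, 3 with median-of-ratios scaling and 1 with the block. Among the fits without single libraries, 21 list counts moved and 795 did not. The cause was not tested. Unknown depth limits the low values most, those of Lmna in rods.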

Other observations

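On day 8 as in CiPC, Lmna, Lmnb2 and Col1a1 had the same order among the 3 libraries. On day 8 replicate 3 was highest, with Lmna at 166 CPM, Lmnb2 at 32.4 CPM and Col1a1 at 11525 CPM, and replicate 2 was lowest, with 87.7, 21.9 and 7409 CPM. Among the other fibroblast markers, Col1a2 and Fn1 also had this order on day 8. Replicate 2 was instead the highest for Col3a1, Dcn, Postn, Pdgfra, S100a4 and Vim, and Thy1 had a further order. Whether any of these orders reflects the makeup of the cultures was not tested.

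Lmnb2 per kilobase made up 10.1% to 11.4% of the lamin sum at P2, 16.4% to 20.8% at P10, 14.8% to 22.6% at P14 and 10.6% to 23.5% at P28, so that the P28 range spanned the P2 values. P28 replicate 1, the library highest for Lmnb1 and Syne2 at that age, had the lowest Lmnb2 share.

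Hmga2 and Hmga1, chromatin proteins known from proliferating and embryonic cells, were low at the intermediate times. Hmga2 was at 675 to 725 CPM in MEF, 9.16 to 10.1 CPM on day 8 and 105 to 121 CPM in CiPC. Hmga1 was at 336 to 399 CPM in MEF, 32.0 to 42.1 CPM on day 8 and 255 to 384 CPM in CiPC. The means of Emd had the same order, highest in MEF, then CiPC, day 5 and day 8.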
